A study of Homo sapiens with 12 samples.

Results

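The subject of these results was the set of well expressed long noncoding RNAs (lncRNAs) of HT29 cells, an established human colorectal adenocarcinoma line. A gene was a member if GENCODE 44 gives it the lncRNA biotype and its mean over the 3 vehicle libraries was at least 5 CPM, a count scaled to the total of its library. Of 14078 lncRNA identifiers in the table, 329 reached this level. Hosts of small nucleolar RNAs, a few other structural RNA genes and a pair of ribosomal RNA locus identifiers, 24 in all, were set aside by name or identifier. The remaining 305 members were compared among 15374 genes tested, out of 60675 identifiers in the table. Every member passed the filter on low counts.

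Cells were treated for 24 h with the water extract of Aconitum carmichaeli Debeaux, called ACD, an herbal root preparation. The low dose was 20 µg/mL, the medium dose 100 µg/mL and the high dose 500 µg/mL, and the control group received the vehicle, a phosphate-buffered saline with 2% DMSO that was added to the medium, so the final DMSO concentration was lower. Each of the 4 groups had 3 libraries, which the labels call mRNA libraries made from total RNA, and the labels do not say whether these came from separate cultures, so p-values measure only the spread between these libraries. A longer treatment note in the labels describes a different herb, Poria cocos, and the groups here follow the sample titles. All groups are 1 cell line in culture, so fewer cells with a transcript and less of it per cell cannot be told apart. Over the 12 libraries, 10 marker genes of colon epithelium had medians from 1.22 CPM for CDX1 to 6354 CPM for the keratin gene KRT8. Low medians were also found for GPA33 at 4.88, CDH17 at 5.84 and CDX2 at 6.01 CPM. Among 9 marker genes of leukocytes, fibroblasts, endothelium and glia the highest single value was 2.61 CPM, for PECAM1, whose median of 1.82 CPM was above that of CDX1.

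LncRNAs are transcripts that are not known to be translated. Many stay in the nucleus, many are spliced poorly or not at all, and a large part of them is removed by the nuclear RNA exosome soon after synthesis. Some act where they are made, on the gene beside them or on the opposite strand, as the imprinted transcript KCNQ1OT1 does. Others have a structural role, as NEAT1 does in paraspeckles, or collect at a nuclear body, as MALAT1 does at nuclear speckles. By position in GENCODE 44, 158 members were antisense, meaning that the gene overlapped a protein-coding gene on the opposite strand by at least 1 base. Another 109 were intergenic and 38 overlapped a coding gene on the same strand. The directional library kit keeps strand, but the strand setting of the authors' counting is not given in the sources used here, so reads of antisense members and their partners could be mixed.

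Library totals ran from 15941255 to 33866644 expected counts. The shallowest library, high dose replicate 2, stood apart from its group. The standard deviation of its log2 differences from the other high dose libraries was 0.502 over 10621 genes above 5 CPM, whereas it was 0.102 to 0.293 for the other 11 libraries. The mitochondrial ribosomal RNA gene MT-RNR1 took 2.73 to 2.89% of the high dose counts and 0.127 to 0.138% of the vehicle counts. Because of this, levels below are CPM scaled by edgeR's TMM factors, given as mean ± SD of 3 libraries.

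The members were spread over a wide range of abundance. By the rule's own measure they ran from 5.00 to 1131 CPM in vehicle with a median of 10.7, and 144 of the 305 lay under 10 CPM. Just inside the threshold were ZFHX3-AS1 at 5.002, HOXA10-AS at 5.007 and ENSG00000270012 at 5.038 CPM, and just outside were ENSG00000256028 at 4.998, TYMSOS at 4.998 and RIPK2-DT at 4.987 CPM. The canonical transcripts were short, with a median of 2283 bases and 2 exons, against 3407 bases and 9 exons for protein-coding genes at 5 CPM or more. Per kilobase of transcript, which allows levels of different genes to be compared, the median member stood at 5.59 CPM per kb in vehicle. ENSG00000280800 stood at 1034, NORAD, a binder of PUMILIO proteins, at 124.6, MALAT1 at 106.2 and NEAT1 at 14.5 CPM per kb. Together the members held 0.827 to 0.887% of the counts in the vehicle libraries, 0.694 to 0.733% at the low dose, 0.697 to 0.731% at the medium dose and 0.634 to 0.669% at the high dose. Without the 5 most abundant members the shares were 0.485 to 0.499%, 0.451 to 0.468%, 0.452 to 0.463% and 0.356 to 0.415%, in the same order. The rule selected on the vehicle mean, which bears on the vehicle shares. All these shares are of raw counts and leave out the TMM factors. Those factors were 0.996 to 1.04 in the vehicle libraries and 0.887 to 0.961 at the high dose, so scaled levels differ less between these groups than the shares do.

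At the high dose, 32 members passed the test against vehicle, with 29 lower and 3 higher. A gene passed, or was called, if edgeR's quasi-likelihood test gave a Benjamini-Hochberg adjusted p under 0.05 over all genes tested and the fold change was over 1.5. Over all 15374 genes, 2.93% were called, 1.68% as lower and 1.26% as higher. Among the members the called share was 10.5%. By the adjusted p alone 50 members passed, 47 of them lower, where 5.77% of all genes passed. The log2 fold change of the members had a median of -0.21, and 231 of 305 values were below 0, whereas the median over all genes was 0.01. Protein-coding genes selected by the same 5 CPM rule, 10086 in number, had a median of 0.03, and 0.892% of them were called lower.

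The rule read the vehicle libraries, which are 1 arm of this comparison. With the mean over all 12 libraries in the rule instead, 272 lncRNAs qualified and their median log2 fold change was -0.17. Of these, 24 were called, 19 lower and 5 higher. Over all genes 2.93% were called, 1.68% as lower and 1.26% as higher. A median below 0 was present in each band of abundance. Members of 5 to 10 CPM had a median of -0.27, those of 10 to 20 CPM -0.20 and those of 20 CPM or more -0.13. The medians of protein-coding genes in the same bands were 0.03 in each case.

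The high dose was also set against the low dose, a comparison in which the vehicle libraries form neither arm. Here 7 members were called, all lower, where 1.58% of all genes were called and 0.833% were called lower. The called members, 2.30%, included LINC00261, COLCA1, LINC03072, TMPO-AS1, B3GAT1-DT and BISPR. Their log2 fold changes between the doses lay between -1.10 and -0.59. Of 20 alternative fits the call held in 20 for LINC00261, 19 for COLCA1, 17 for TMPO-AS1, 14 for LINC03072, 10 for B3GAT1-DT and 9 for BISPR. The calls of B3GAT1-DT and BISPR were lost under DESeq2's test. With the 2 groups fitted alone 1 of the 7 remained, where 0.581% of all genes were called. By edgeR 0 members were called higher, 17 were higher at an unadjusted p under 0.05, and DESeq2 called 1 higher. The median over the members was -0.11, with 199 of 305 values below 0. All 3 high dose libraries lay under all 3 low dose libraries for 59 members, 19.3%, where 10.6% of all genes did so. Against vehicle the same was true of 109 members, 35.7%, where 11.5% of all genes did so.

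The members were also read library by library. They were chosen by the mean of the same vehicle libraries, so the position of these libraries is partly fixed by the rule. Expressed as the log2 difference from the vehicle mean, the median over the 305 members was -0.03 to 0.03 in the vehicle libraries. It was -0.07, -0.12 and -0.15 in the low dose libraries and -0.11, -0.12 and -0.14 in the medium dose libraries. At the high dose it was -0.17, -0.35 and -0.22, with replicate 2 lowest. The low and medium ranges overlapped. The medians of protein-coding genes lay between 0.00 and 0.04 in all 9 treated libraries. Without high dose replicate 2 the median fold change of the members at the high dose was -0.20, and 38 members were called, where 768 genes or 4.90% of all genes were called. Of these, 25 were among the 32, while 7 of the 32 no longer passed.

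**Figure D1:**
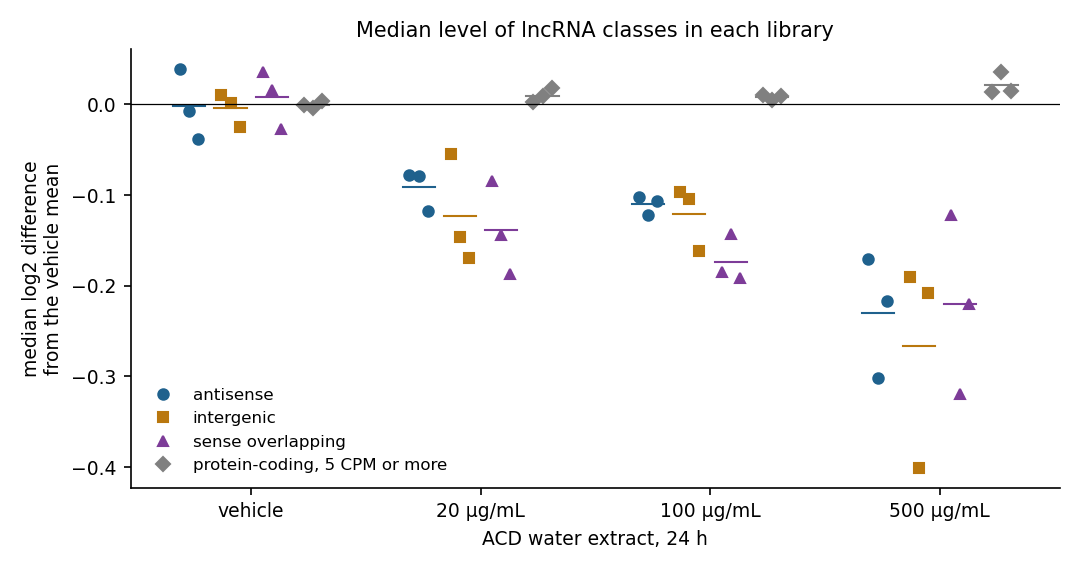
Median log2 difference from the vehicle mean (vertical axis) over antisense, intergenic and sense overlapping lncRNAs and over protein-coding genes at 5 CPM or more, in each of the 12 libraries. Points are libraries and lines are means of 3; the treated lncRNA medians lie between -0.40 and -0.05, and the protein-coding medians stay within 0.04 of 0.

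Fewer members passed at the lower doses. At the medium dose 11 members were called, 10 lower and 1 higher, where 0.676% of all genes were called and 0.293% were called lower, and the median was -0.13. At the low dose 4 were called, all lower, where 0.111% of all genes were called and 0.0455% were called lower, and the median was -0.09. By edgeR 0 members were called higher at the low dose, with 6 higher at an unadjusted p under 0.05 and 0 called higher by DESeq2. The 3 comparisons share the vehicle libraries. All 4 members called at the low dose and 10 of the 11 called at the medium dose were among the 32 called at the high dose. The 29 members lower at the high dose were chosen for that dose, so their medians are a description, with -0.43 at the low, -0.57 at the medium and -0.80 at the high dose on the log2 scale. Leaving out high dose replicate 2, which is in neither arm but enters the shared estimate of spread, brought the count to 20 at the medium and 15 at the low dose, where 1.59% and 0.695% of all genes were then called. Without medium replicate 1 the medium dose count was 5, without medium replicate 3 or vehicle replicate 2 or 3 it was 6, and without low replicate 3 it was 7. In these fits 0.333 to 0.555% of all genes were called. Without low replicate 2 or 3 the low dose count was 1, and without any single vehicle or medium dose library it was 2. In these fits 0.0640 to 0.0894% of all genes were called.

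**Figure D2:**
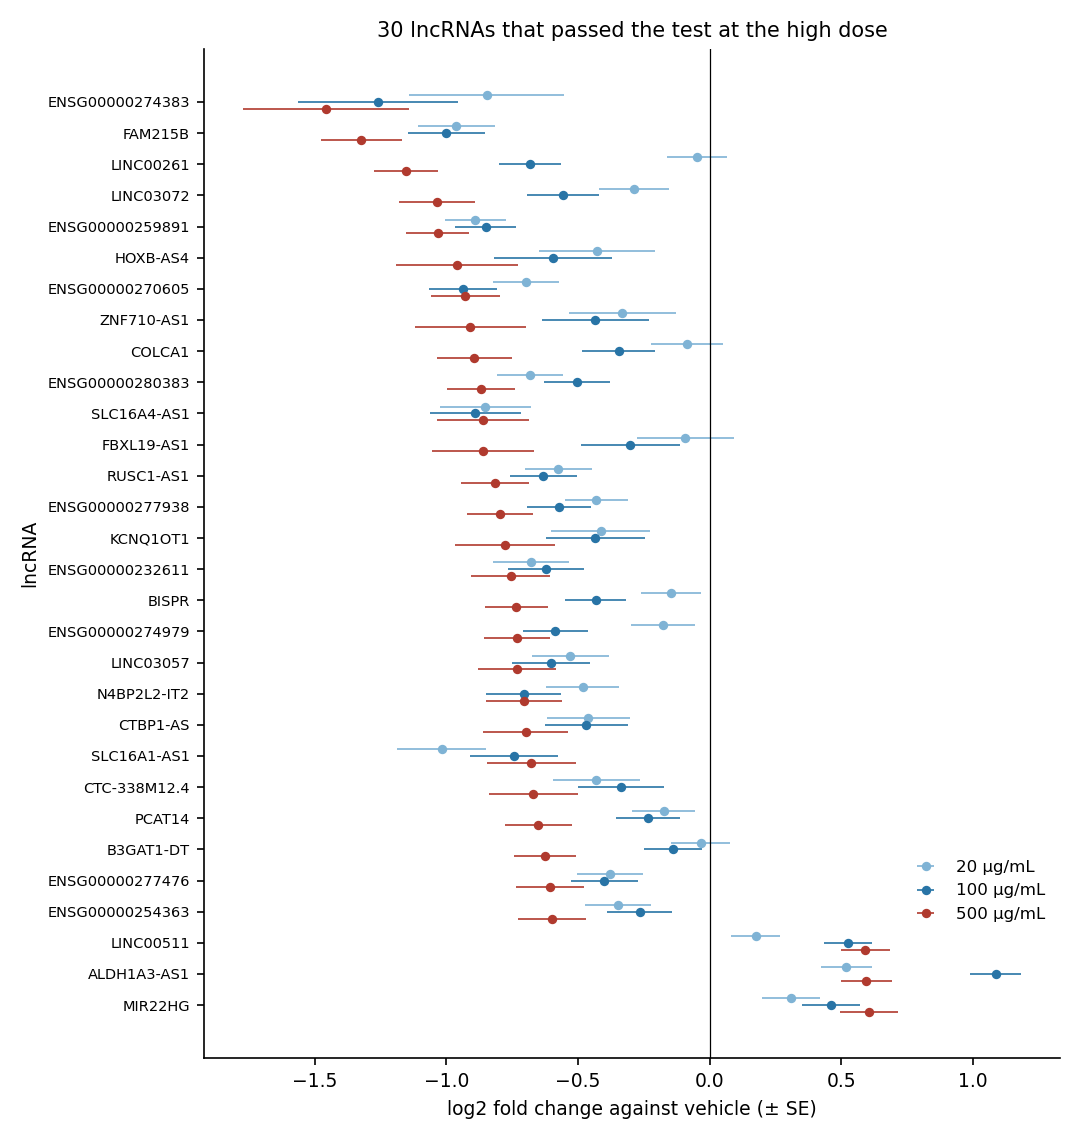
Log2 fold change against vehicle with its standard error (horizontal axis) at 3 doses for 30 of the 32 lncRNAs called at the high dose (vertical axis). The lower members shown lie between -1.46 and -0.60 at the high dose, and LINC00511, ALDH1A3-AS1 and MIR22HG are the 3 higher ones.

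LINC00261, an intergenic lncRNA of endoderm-derived epithelia, lies at chr20:22547663-22578642 on the minus strand of GRCh38, 2356 bases from FOXA2, a forkhead transcription factor gene of the same tissues. It was at 14.6, 15.8 and 17.9 CPM in vehicle and 15.1, 17.2 and 14.3 CPM at the low dose, and these groups overlapped. It dropped to 9.54, 10.8 and 9.70 CPM at the medium and 7.24, 6.08 and 8.11 CPM at the high dose, both below every vehicle library. The log2 fold change was -0.05 ± 0.11 (SE), -0.68 ± 0.12 and -1.15 ± 0.12 from the low to the high dose (edgeR adjusted p = 0.94, 0.015 and 0.00014). The medium dose call was lost without vehicle replicate 2 or 3 or medium replicate 1 or 3. FOXA2 stood at 11.1 CPM in vehicle and 7.19 CPM at the high dose, a log2 fold change of -0.59 ± 0.17 that did not pass (edgeR adjusted p = 0.066).

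COLCA1, colorectal cancer associated 1, has a similar profile and lies opposite POU2AF3, also known as COLCA2, at chr11:111290787-111305498 on the minus strand. It was at 29.3, 31.2 and 34.2 CPM in vehicle, 29.8, 30.8 and 28.5 at the low dose, 23.5, 25.8 and 25.2 at the medium and 17.9, 12.1 and 20.3 at the high dose. The high dose libraries lay below all others, and the fold change of -0.89 ± 0.14 passed (edgeR adjusted p = 0.0026). POU2AF3 had a smaller log2 fold change of -0.34 ± 0.06 with an edgeR adjusted p of 0.0086, under the fold limit. Its levels were 23.2, 23.4 and 23.8 CPM in vehicle and 18.1, 18.7 and 18.7 CPM at the high dose. The genes share 445 bases of exon.

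Promoters are printed for the 4 members called at the high dose with the largest absolute fold change that have a window in the RefSeq table, so that the letters behind the motif search can be seen. RefSeq windows (GRCh38.p14, 250 bases before to 50 after a start, read on the gene's strand) were matched by symbol for 153 of 305 members and for 12 of the 32 called ones. Capitals mark matches on either strand to the xenobiotic response element core GCGTG, the antioxidant response element TGACNNNGC and the C/EBP-ATF response element TGATGNAA. The windows are chr20:22578593-22578892 (minus) for LINC00261, chr17:48628448-48628747 (plus) for HOXB-AS4, chr15:90082158-90082457 (minus) for ZNF710-AS1 and chr11:111304999-111305298 (minus) for COLCA1. The COLCA1 window is 450 bases from the GENCODE start and is 1 of 5 for that gene.
LINC00261: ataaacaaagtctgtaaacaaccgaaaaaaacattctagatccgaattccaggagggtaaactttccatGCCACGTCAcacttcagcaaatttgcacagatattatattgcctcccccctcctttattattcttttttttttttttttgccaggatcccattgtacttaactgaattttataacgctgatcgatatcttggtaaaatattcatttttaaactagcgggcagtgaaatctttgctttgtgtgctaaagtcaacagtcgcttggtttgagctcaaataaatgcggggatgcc
HOXB-AS4: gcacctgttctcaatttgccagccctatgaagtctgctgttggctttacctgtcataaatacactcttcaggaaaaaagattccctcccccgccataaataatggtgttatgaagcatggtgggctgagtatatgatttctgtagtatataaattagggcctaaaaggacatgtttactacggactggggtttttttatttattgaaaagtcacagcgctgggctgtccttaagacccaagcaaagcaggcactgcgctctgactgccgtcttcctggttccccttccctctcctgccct
ZNF710-AS1: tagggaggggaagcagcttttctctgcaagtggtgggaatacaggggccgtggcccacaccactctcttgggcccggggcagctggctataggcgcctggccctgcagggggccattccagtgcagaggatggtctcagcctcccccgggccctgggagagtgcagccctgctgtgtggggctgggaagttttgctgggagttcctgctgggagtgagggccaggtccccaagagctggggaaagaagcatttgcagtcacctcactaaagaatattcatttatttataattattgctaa
COLCA1: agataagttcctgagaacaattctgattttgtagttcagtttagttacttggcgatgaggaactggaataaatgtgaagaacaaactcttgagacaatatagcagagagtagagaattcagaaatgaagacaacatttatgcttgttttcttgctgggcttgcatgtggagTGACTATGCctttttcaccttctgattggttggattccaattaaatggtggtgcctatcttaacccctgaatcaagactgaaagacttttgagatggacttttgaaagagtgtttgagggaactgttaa

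Only the antioxidant response element letters occurred in these 4 windows, once each in LINC00261 and COLCA1. Over all windows of the members, 20.0% of 185 held these letters, against 13.3% of the 35116 windows in the table. The xenobiotic core occurred in 43.8% of member windows and in 36.5% of all windows, and the C/EBP-ATF letters in 2.16% and 3.62%. In the 18 windows of the members called at the high dose the antioxidant letters occurred in 22.2%, the xenobiotic core in 33.3% and the C/EBP-ATF letters in 0%. Shares are of windows, and a gene can have several. These are matches of letters in a fixed window and were not tested.

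FAM215B and ENSG00000259891 were called at all 3 doses. FAM215B, a sense overlapping member, went from 5.46 ± 0.42 CPM in vehicle to 2.78 ± 0.36, 2.72 ± 0.11 and 2.20 ± 0.43 CPM with rising dose. Its log2 fold changes were -0.96, -1.001 and -1.32 (edgeR adjusted p = 0.023, 0.0055 and 0.00030). The intergenic ENSG00000259891 went from 15.3 ± 2.0 CPM to 8.24 ± 0.61, 8.48 ± 0.21 and 7.55 ± 0.97 CPM, with edgeR adjusted p of 0.0076, 0.0033 and 0.00029. In both genes the low dose libraries were already below every vehicle library and the later steps were small. The low dose call of FAM215B was lost without any single vehicle, low or medium dose library, and that of ENSG00000259891 without low replicate 2 or 3. Both shared letters with other transcripts, with 13.0 and 14.6% of their 31-base words also present in another gene on the same strand.

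SLC16A1-AS1 and SLC16A4-AS1 lie opposite genes of the monocarboxylate transporter family on chromosome 1. SLC16A1-AS1 was at 14.2, 11.96 and 10.2 CPM in vehicle, 7.31, 5.49 and 5.01 at the low dose, 6.51, 7.57 and 7.53 at the medium and 7.06, 9.27 and 6.70 at the high dose. It was lowest at the low dose, with a log2 fold change of -1.02 ± 0.17 there and -0.68 ± 0.17 at the high dose (edgeR adjusted p = 0.045 and 0.035). SLC16A4-AS1 went from 16.6 ± 0.7 CPM to 9.17 ± 0.95, 8.91 ± 1.29 and 9.35 ± 2.84 CPM and passed at the medium and high doses, with log2 fold changes of -0.89 and -0.86 (edgeR adjusted p = 0.031 and 0.013). The medium dose call was lost without any single vehicle, low or medium dose library. The low dose call of SLC16A1-AS1 was lost without any single vehicle or medium dose library, low replicate 2 or 3, or high replicate 1. The coding genes opposite them, SLC16A1 at 0.09 ± 0.08 and SLC16A4 at 0.04 ± 0.11 on the log2 scale at the high dose, did not pass (edgeR adjusted p = 0.59 and 0.89).

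RUSC1-AS1, which overlaps FDPS, the gene of farnesyl diphosphate synthase in the mevalonate pathway, was at 20.7 ± 2.4 CPM in vehicle and 11.7 ± 1.2 CPM at the high dose, a log2 fold change of -0.82 ± 0.13 (edgeR adjusted p = 0.0026). FDPS showed -0.13 ± 0.11 and did not pass. BISPR, whose start is 56 bases from that of BST2, the gene of the antiviral membrane protein tetherin, went from 7.84 ± 0.45 to 4.68 ± 0.69 CPM, or -0.73 ± 0.12 on the log2 scale (edgeR adjusted p = 0.0033). BST2 showed 0.11 ± 0.20. N4BP2L2-IT2, a transcript from within N4BP2L2, went from 5.79 ± 0.08 to 3.55 ± 0.01 CPM, and N4BP2L2 showed -0.02 ± 0.08 on the log2 scale. LINC03072, ENSG00000270605, ENSG00000280383, ENSG00000277938 and ENSG00000274979 were also among the 12 lower members that ranked first by p, and their high dose log2 fold changes were -1.03, -0.93, -0.87, -0.80 and -0.73. Each had all 3 high dose libraries below all 3 vehicle libraries. The same held for all 29 members called lower, which were chosen in this comparison, and for 11.5% of all genes.

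The call at the high dose held in all 20 alternative fits for 9 of the 32 members, among them FAM215B, LINC00261, LINC03072, RUSC1-AS1, ENSG00000259891, ENSG00000270605, ENSG00000277938 and ENSG00000280383. A fit to the high dose and vehicle libraries alone called 11 members, where 1.15% of all genes were called. COLCA1, BISPR and ENSG00000274979 were lost there and nowhere else. Without vehicle replicate 2 the count was 21, where 1.98% of all genes were called. SLC16A1-AS1 was lost in 10 of the 20 fits at the high dose, among them those without vehicle replicate 1 or 2. SLC16A4-AS1 was lost without vehicle replicate 2 or high replicate 3, and N4BP2L2-IT2 without either of the same 2 libraries.

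A group of 3 members rose at the high dose. ALDH1A3-AS1 lies opposite ALDH1A3, the gene of a retinaldehyde dehydrogenase that makes retinoic acid, at chr15:100892343-100919391 on the minus strand, with 1715 bases of exon overlap. It was at 10.2, 11.1 and 10.8 CPM in vehicle, 16.3, 15.1 and 14.5 at the low dose, 21.5, 23.5 and 23.0 at the medium and 17.1, 13.7 and 17.3 at the high dose. Each treated group lay above vehicle, and the medium dose was highest. Its log2 fold change was 0.52 ± 0.10 at the low dose, which did not pass, 1.08 ± 0.10 at the medium and 0.59 ± 0.10 at the high dose (edgeR adjusted p = 0.070, 0.00012 and 0.0035). ALDH1A3 followed the same order with larger changes of 1.02 ± 0.10, 2.42 ± 0.10 and 1.99 ± 0.10, and its levels rose from 17.6, 18.9 and 19.1 CPM in vehicle to 100.6, 98.4 and 100.1 CPM at the medium dose. Of the 15 antisense members called at the high dose this was the only pair in which both genes were called. As the strand setting of the counting is not given, reads of ALDH1A3 and ALDH1A3-AS1 could be mixed. The high dose call of ALDH1A3-AS1 was lost without vehicle replicate 1 or high replicate 1 or 3.

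MIR22HG, the host transcript of the microRNA miR-22, was at 5.83, 6.90 and 6.45 CPM in vehicle, 7.93, 7.71 and 8.27 at the low dose, 8.95, 9.16 and 8.43 at the medium and 9.72, 11.3 and 8.60 at the high dose. Each treated group lay above vehicle. The log2 fold change was 0.31 ± 0.11, 0.46 ± 0.11 and 0.60 ± 0.11 in order of dose, and the last passed (edgeR adjusted p = 0.0066). Without high replicate 2 it was 0.50 with an adjusted p of 0.0028, under the fold limit, and without vehicle replicate 1 the call was also lost. The mature microRNAs processed from this transcript, which were not measured here, are printed from RefSeq to identify the product, with the seed (bases 2 to 8) in capitals.
hsa-miR-22-3p: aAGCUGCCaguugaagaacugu
hsa-miR-22-5p: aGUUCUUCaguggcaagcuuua

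LINC00511, an intergenic lncRNA described in several carcinomas, lies at chr17:72290091-72640472 on the minus strand. It went from 20.5 ± 1.4 CPM in vehicle to 23.1 ± 1.0, 29.5 ± 1.5 and 30.97 ± 3.6 CPM, with log2 fold changes of 0.17 ± 0.09, 0.52 ± 0.09 and 0.59 ± 0.09. All 9 treated libraries lay above all 3 vehicle libraries. The high dose value passed by edgeR (adjusted p = 0.0025), and the medium dose value was significant but under the fold limit (adjusted p = 0.018). The high dose value lies close to the fold limit, and it fell under that limit without high replicate 2, at 0.50. The call was also lost without vehicle replicate 3.

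**Figure D3:**
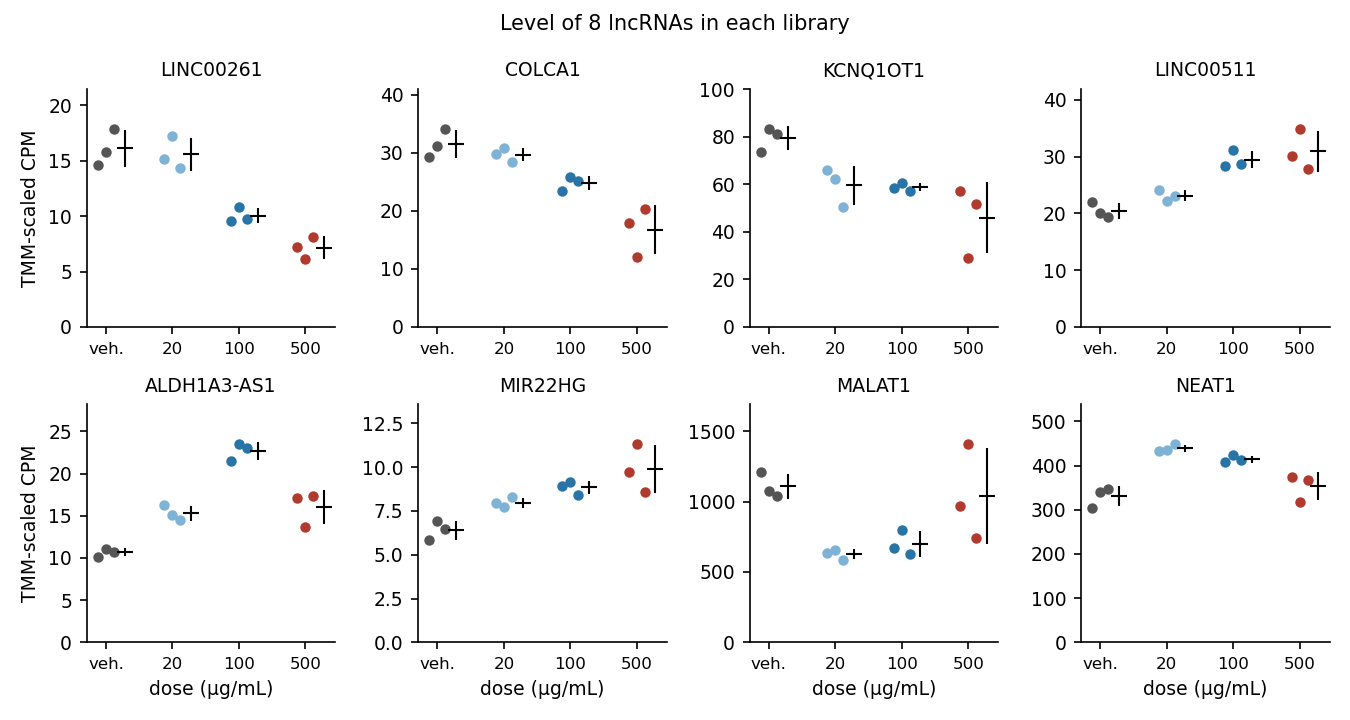
TMM-scaled CPM (vertical axes, from 0) of 8 lncRNAs in each of the 12 libraries by dose. Points are libraries, and the mark beside them is mean ± SD of 3; LINC00261 and COLCA1 are lowest at 500 µg/mL, ALDH1A3-AS1 is highest at 100 µg/mL, and MALAT1 spans 743 to 1408 CPM at 500 µg/mL.

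Of the 9 members at 100 CPM or more, ENSG00000280800 alone passed at any dose. MALAT1 was at 1209, 1077 and 1039 CPM in vehicle, 638, 654 and 587 at the low dose, 670, 800 and 625 at the medium and 968, 1408 and 743 at the high dose. The low and medium groups lay below vehicle and did not overlap with it, whereas the high dose libraries straddled it. The log2 fold change was -0.82 ± 0.19, -0.67 ± 0.18 and -0.09 ± 0.18 in order of dose (edgeR adjusted p = 0.14, 0.15 and 0.84). NEAT1, its neighbour on chromosome 11, had the opposite order, with 304, 340 and 346 CPM in vehicle, 432, 435 and 449 at the low dose, 407, 423 and 412 at the medium and 375, 317 and 367 at the high dose. Its log2 values of 0.41 ± 0.08 and 0.33 ± 0.08 at the low and medium doses did not pass (edgeR adjusted p = 0.091 and 0.095). NORAD at 673 ± 58 CPM in vehicle and 588 ± 61 CPM at the high dose overlapped between the groups, as did OIP5-AS1 at 124.2 ± 3.6 and 117.6 ± 4.0 CPM. ENSG00000258232, antisense to the tubulin gene TUBA1C, was at 125.3 ± 34.3 and 115.8 ± 13.9 CPM.

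ENSG00000280800, at chr21:8210384-8211306, cannot be measured on its own in these files. Every 31-base word of its 923-base transcript is also in ENSG00000281181, 1 of the ribosomal locus identifiers that the rule sets aside. It was at 842, 1113 and 909 CPM in vehicle, 107, 206 and 115 at the low dose, 58.8, 90.1 and 110 at the medium and 111, 615 and 187 at the high dose. The log2 fold change passed at the medium dose alone, at -3.46 ± 0.54 (edgeR adjusted p = 0.0084), and was -1.65 ± 0.51 at the high dose (adjusted p = 0.081). Without high replicate 2 the high dose value was -2.68 and passed (adjusted p = 0.0057). The medium dose call was lost without medium replicate 1 or 2.

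Among the 19 members on a list of well known lncRNAs, 4 were called at the high dose, 2 higher, MIR22HG and LINC00511, and 2 lower, KCNQ1OT1 among them, where 2.93% of all genes were called. The median of the list was -0.06, above that of all members, and it was -0.16 at the low dose. Between the high and low doses it was 0.11, with 11 of 19 values above 0. KCNQ1OT1, which silences genes of the imprinted 11p15 cluster in cis, was at 73.6, 83.3 and 81.0 CPM in vehicle and 57.2, 28.9 and 51.8 CPM at the high dose, a log2 fold change of -0.78 ± 0.19 (edgeR adjusted p = 0.033). Replicate 2 was lowest. Without it the value was -0.55, under the fold limit, with an adjusted p of 0.00085, and the call held in 7 of 20 alternative fits. KCNQ1 on the opposite strand was at -0.08 ± 0.13. TMPO-AS1 passed only between the high and low doses, at -0.60 ± 0.11 (edgeR adjusted p = 0.010), and the call was lost without low replicate 1 or high replicate 2. TMPO was at -0.0019 ± 0.07 against vehicle. The other 14 members of the list, from UCA1 to DLEU2, lay between -0.29 and 0.32 at the high dose and did not pass.

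A list of 9 members was picked by HOX cluster symbols, the HOX antisense names, HOTTIP and names starting with HOTAIR. Of these, 8 had a high dose log2 value below 0, and the list median was -0.34. In 6 of them all high dose values were under all vehicle values, as in 11.5% of all genes. On this list only HOXB-AS4 was called, where 2.93% of all genes were, and its value was -0.96 ± 0.23 (edgeR adjusted p = 0.032). HOXA-AS2 at -0.56 ± 0.11 and HOXB-AS3 at -0.54 ± 0.11 reached adjusted p values of 0.0101 and 0.00996 by edgeR, under the fold limit. HOXB-AS4 was named after its values were seen, and its call was lost without any single vehicle library. LINC03057, also named after its values were seen, is not on the list because of its symbol. It lies 2351 bases from HOXB7 on the same strand and was called lower at the high dose, a call that held in 17 of 20 alternative fits. HOTAIR, from the HOXC cluster, was the list's exception at 0.13 ± 0.10. At the low and medium doses the list medians were -0.04 and -0.03 and by edgeR 0 of the 9 were called, with 0 and 1 lower at an unadjusted p under 0.05 and 0 called by DESeq2 at either dose. Among 27 HOX protein-coding genes tested, HOXB8 alone was called at the high dose, at -0.66 ± 0.14, and 22 lay below 0 with a median of -0.19.

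Of 11 microRNA host genes, MIR22HG was the only one called, and the median at the high dose was -0.09, with 9 of 11 values below 0. The list had 1 call, or 9.09%, beside 10.5% over all members and 2.93% of all genes. The low and medium dose medians were -0.20 and -0.16, and the median between the high and low doses was 0.10, with 7 of 11 values above 0.

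The comparison of antisense with intergenic members gave small differences at all 3 doses. At the high dose 15 of 158 antisense members were called, 13 lower, and 13 of 109 intergenic members, 12 lower, which are 9.49 and 11.9% beside 2.93% of all genes. The median log2 fold change was -0.20 for antisense and -0.24 for intergenic members. At the medium dose 5 antisense and 4 intergenic members were called and the medians were -0.11 and -0.15. At the low dose 2 and 1 were called, with medians of -0.06 and -0.12. The antisense median was thus higher by 0.05, 0.04 and 0.05 at the low, medium and high dose, and the same difference had a standard deviation of 0.0433 between replicate libraries. In single libraries it ran from -0.01 to 0.03 in vehicle, -0.02 to 0.07 at the low, -0.02 to 0.06 at the medium and -0.01 to 0.10 at the high dose, so that all groups overlapped. With members of 10 CPM or more the difference was -0.10 at the medium dose, and with genes classed by symbol, -AS against LINC, it was -0.02 at the high dose. The 38 sense overlapping members had medians of -0.14, -0.18 and -0.21.

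**Figure D4:**
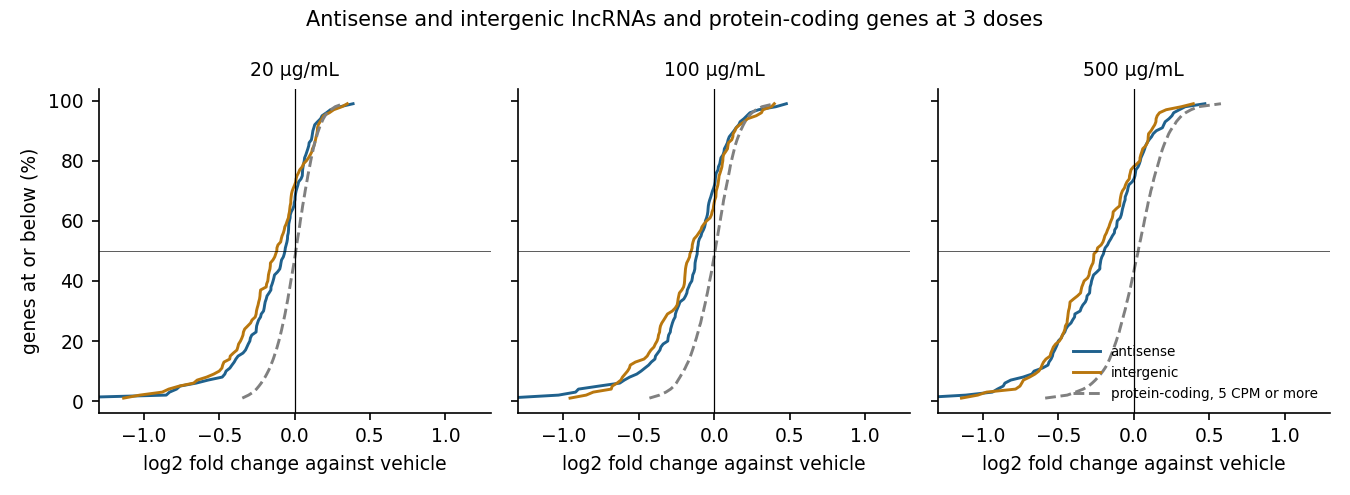
Cumulative distribution of the log2 fold change against vehicle (horizontal axis) for antisense lncRNAs, intergenic lncRNAs and protein-coding genes at 5 CPM or more, as the percent of genes at or below each value (vertical axis), at 3 doses. The antisense and intergenic curves run close together, with medians of -0.20 and -0.24 at 500 µg/mL, and both lie left of the protein-coding curve, whose median is 0.03.

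Antisense members and the genes opposite them were read side by side in the 140 pairs in which both were tested. At the high dose the median log2 fold change was -0.20 for the lncRNAs and -0.01 for their partners. Of the partners 2 were called, ALDH1A3 and GARS1, where 2.93% of all genes were called. Pearson's r over the 140 pairs was 0.27 and Spearman's rho 0.18, a description across genes that share the same libraries. Between the high and low doses r was 0.07 and rho 0.15. In the 123 pairs with exon overlap, where reads of both strands could mix, r was 0.29 at the high dose, and in the 17 without it was 0.30.

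Members whose start lies within 1000 bases of an opposite-strand coding start numbered 82, and 77 had a neighbour that was tested. The lncRNAs of these pairs had a high dose median of -0.19 and the neighbours 0.03. The lncRNA had the lower value in 54 of the 77 pairs. In these pairs 6 lncRNAs were called and 1 neighbour, SLC12A2, a chloride cotransporter gene beside SLC12A2-DT, where 2.93% of all genes were called. FBXL19-AS1, named after its values were seen, was at -0.86 ± 0.19 beside FBXL19 at -0.06 ± 0.13, and its call was lost without vehicle replicate 2 or 3.

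**Figure D5:**
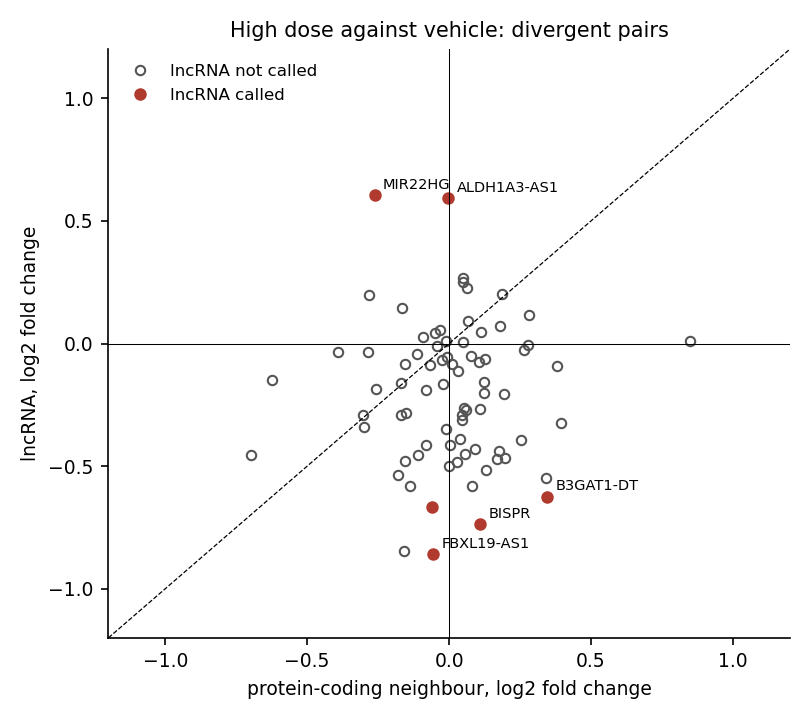
Log2 fold change of the high dose against vehicle for 77 lncRNAs (vertical axis) and the coding gene that starts within 1000 bases on the opposite strand (horizontal axis). Filled points, of which 5 are named, are the 6 lncRNAs called, and the dashed line marks equal change; 54 of the 77 points lie below it.

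The number of exons went along with the size of the difference to a small degree. The 97 members with 1 exon had a high dose median of -0.27, and 12 of them were called, all lower. The 208 with more exons had a median of -0.17, with 20 called, 17 lower. The called shares were 12.4% and 9.62%, beside 10.5% of all members and 2.93% of all genes. Spearman's rho between exon number and log2 fold change was 0.20 over 305 members at the high dose against vehicle and 0.06 between the high and low doses. GC content and transcript length gave rho of 0.12 and 0.02 at the high dose against vehicle. Between the high and low doses they gave -0.09 and -0.06. Members with at least 10% of their 31-base words in another gene on the same strand, 76 in number, had the same median as the 229 others, -0.21 in both.

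Genes that act on lncRNAs were read from lists of paraspeckle proteins, nuclear speckle and splicing factors, the nuclear exosome with its cofactors and nonsense-mediated decay. By edgeR 0 of the 58 genes were called at any dose, where 2.93%, 0.676% and 0.111% of all genes were called at the high, medium and low dose, and DESeq2 called 0. At an unadjusted p under 0.05, 6 were higher and 2 lower at the high dose, 3 and 2 at the medium and 2 and 3 at the low dose. The medians at the high dose were 0.10, 0.08, 0.10 and -0.0033 on the log2 scale, in the order of the lists. ZCCHC8, a subunit of the exosome-targeting complex, was the only gene with an adjusted p under 0.05, at 0.25 on the log2 scale (edgeR adjusted p = 0.041).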

How the data were processed

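Directional MGIEasy mRNA libraries were made from total RNA of HT29 cells, 3 per group in 4 groups. How mRNA was selected is not given in the sources used here. Per the labels, reads were checked with FastQC 0.11.9, trimmed with Trim Galore 0.6.5, aligned with STAR 2.7.3a and quantified with RSEM 1.3.3 on hg38. The deposited table holds the authors' expected counts per Ensembl gene, not normalized. The strand setting is not given in the sources used here.

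For the tests these values were rounded to integers. Genes were filtered with filterByExpr, scaled with TMM and tested with the quasi-likelihood test of edgeR 4.0.16 in R 4.3.3 over all 12 libraries jointly, with Benjamini-Hochberg adjustment over 15374 genes. The biological coefficient of variation was 11.2%. Log2 levels used a prior count of 2. Classes, lengths and coordinates came from GENCODE 44 on GRCh38, which held 93.2% of the identifiers. Sequence sharing was counted over 31-base words of the canonical transcripts. On simulated counts for the high dose against vehicle, 97 of 100 genes changed 2-fold and 100 of 100 changed 4-fold were called. In the same simulation, 4 unchanged genes were called among 15226 genes. The changed genes were drawn from well counted genes only. Apart from the set changes, all libraries shared a common mean per gene, so none stood apart as high dose replicate 2 did. The recovery therefore need not hold for the real libraries or for members near 5 CPM.

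Members, lists and tests were chosen with earlier results of these data known. Genes were named by rule: members called at the medium or low dose, the 12 with the smallest p in each direction at the high dose, abundant and well known members, opposite-strand partners and threshold neighbours. Some items that this rule selects are not reported here. Alternatives were DESeq2 1.42.0, other scaling, filters, sample sets and member rules. Expression counts carry counting error, largest for members near 5 CPM.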

Additional observations from a re-analysis of the deposited data

How the results depend on the processing

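The median log2 fold change of the members stayed below 0 in all 20 alternative fits of each comparison, from -0.23 to -0.19 at the high dose. The counts of calls moved more. With the 2 compared groups fitted alone, the counts were 11 at the high, 20 at the medium and 11 at the low dose, and 1 for the high against the low dose. Over all genes, 1.15%, 1.28%, 0.337% and 0.581% were called in these fits, in the same order. DESeq2 called 18 members at the medium and 13 at the low dose, where it called 136 and 50 of all genes, or 0.458% and 0.168%. Without a minimum fold change 50 members passed at the high dose and 15 between the high and low doses, where 887 and 458 of 15374 genes passed. Restricting members to 10 CPM or more left 161 members, with 16 and 3 calls, where 2.93% and 1.58% of all genes were called. Leaving out 1 library at a time gave 21 to 38 calls at the high dose, 5 to 20 at the medium, 1 to 15 at the low and 5 to 9 between the high and low doses. The shares of all genes called ran from 1.98 to 4.90%, 0.333 to 1.59%, 0.0640 to 0.695% and 1.02 to 2.14%, in the same order. The cause was not tested.

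The difference between antisense and intergenic medians was above 0 in 23, 22 and 24 of 25 alternatives at the high, medium and low dose. With members of 10 CPM or more it was -0.0063, -0.0984 and -0.0350, and with -AS against LINC symbols it was -0.0242, -0.0477 and 0.00045, in the same order. With the rule on all 12 libraries it was -0.0038 at the medium dose. The cause was not tested.

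Replicate numbers are shared between groups, but deviations of same-numbered libraries correlated between -0.264 and 0.139, so the numbers were not taken to pair libraries. With the replicate number as a block, 28, 8 and 4 members were called at the high, medium and low dose and 7 between the high and low doses. Over all genes, 2.47%, 0.488%, 0.111% and 1.28% were called in that fit. Its antisense minus intergenic differences were 0.0620, 0.0466 and 0.0548 at the high, medium and low dose. Leaving out the genes of chromosome M, an alternative chosen after seeing the data, gave 32, 10, 4 and 7 calls, where 2.85%, 0.651%, 0.111% and 1.51% of all genes were called.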

Other observations

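Less abundant lncRNAs, outside the 5 CPM rule, had a similar median. Of 1457 lncRNAs tested below 5 CPM in vehicle, 58 or 3.98% were called at the high dose, 45 lower and 13 higher, where 2.93% of all genes were called, and the median log2 fold change was -0.23. Without high dose replicate 2, 13 further members passed the high dose test and 7 no longer did, where 4.90% of all genes were called. ENSG00000268205 went from -0.59 to -0.95, ENSG00000263731 from -0.61 to -1.08 and RAB33B-AS1 from -0.58 to -0.83 on the log2 scale when that library was left out.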
